A study of Homo sapiens with 96 samples.

Results

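A549 is an established human lung adenocarcinoma cell line, and Paeoniae Radix is dried peony root, a component of many East Asian herbal formulas. A549 cells given a water extract of this root at 500 µg/mL, the highest of its 3 doses, were compared with vehicle-treated cells of the same batch. The libraries were taken by their labels and number 6 of the 96 in the series, 3 in each group. From the same batch, 3 libraries each of cells given the water extract at 20 or 100 µg/mL, and 3 of cells given an ethanol extract at 500 µg/mL, were used to place the result by dose and by extract. All these groups are the same line, and the labels name no genetic change in any of them. Neither the exposure time nor the kind of vehicle nor the making of the extracts is given in the sources used here. The labels number the replicates without saying that they were separate cultures, so each p-value speaks of library spread that may be technical only. The comparison asks which genes responded to the highest dose of the water extract, and how those responses stood at lower doses and beside the other extract. Cells given the water extract at 500 µg/mL are called treated below.

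In treated cells, transcripts of the heme-degrading enzyme HMOX1 rose 2.15-fold over vehicle, and with them rose the iron genes TFRC, FBXL5 and SLC40A1, the glutathione gene GCLM, and CYP1B1 and TIPARP, targets of the aryl hydrocarbon receptor. All 4 ID genes, the related target ATOH8 and the nuclear receptor gene NR4A1 fell. So did 4 glutathione peroxidase genes, GPX1 to GPX4, and the metallothionein MT2A. Each of the genes named here except GPX2 and GPX4 also differed between 500 and 20 µg/mL. Of these calls, that of TFRC between the doses was lost without treated replicate 2 (edgeR adjusted p = 0.0552), that of MT2A between the doses without treated replicates 1 or 2 or 20 µg/mL replicate 3 (edgeR adjusted p between 0.0504 and 0.104), and that of GPX2 against vehicle without vehicle replicate 3 or treated replicate 2 (edgeR adjusted p between 0.0504 and 0.0676). Mitochondrially encoded transcripts were lower than vehicle to a similar extent at 500 and 20 µg/mL.

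Heme oxygenase opens the heme ring and releases iron, which cells take up through the transferrin receptor, store in ferritin and export through ferroportin. Its gene is a classic target of the transcription factor NRF2, which binds antioxidant response elements, and of heme itself through the repressor BACH1. The aryl hydrocarbon receptor is a ligand-activated transcription factor whose targets include enzymes that oxidise planar aromatic compounds. ID proteins dimerise with basic helix-loop-helix factors and keep them from DNA, and their genes are direct targets of bone morphogenetic protein (BMP) signalling through SMAD proteins. Selenoproteins carry selenocysteine, inserted at a stop codon, and the mRNAs of several are known to be sensitive to selenium supply. Metallothioneins bind zinc and copper and are induced by metals.

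The promoter sequences of the ID genes, GCLM and TIPARP are shown because the results turn on these genes, which are known targets of BMP signalling, of NRF2 and of the aryl hydrocarbon receptor. The windows come from RefSeq on GRCh38.p14 and hold the 250 bases before the gene start, written 5′ to 3′ on the gene's strand. They are chr20:31605039-31605288 on the plus strand for ID1, chr2:8681806-8682055 on the plus strand for ID2, chr1:23559502-23559751 on the minus strand for ID3, chr6:19837120-19837369 on the plus strand for ID4, chr1:93909431-93909680 on the minus strand for GCLM and chr3:156674340-156674589 on the plus strand for the first of 3 TIPARP windows. Of 9 genes looked up, 7 had a window, and HMOX1 and CYP1B1 are named without sequence. In the ID genes, capitals mark the BMP response element letters GGCGCC or GGAGCC on either strand. In GCLM they mark the antioxidant response element core TGACNNNGC, and in TIPARP the xenobiotic response element core GCGTG, again on either strand.
ID1: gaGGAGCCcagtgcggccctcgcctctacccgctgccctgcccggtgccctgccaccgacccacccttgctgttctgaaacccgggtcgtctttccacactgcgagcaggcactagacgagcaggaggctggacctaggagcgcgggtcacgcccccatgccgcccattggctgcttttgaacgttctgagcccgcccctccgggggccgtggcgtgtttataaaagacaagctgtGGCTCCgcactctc
ID2: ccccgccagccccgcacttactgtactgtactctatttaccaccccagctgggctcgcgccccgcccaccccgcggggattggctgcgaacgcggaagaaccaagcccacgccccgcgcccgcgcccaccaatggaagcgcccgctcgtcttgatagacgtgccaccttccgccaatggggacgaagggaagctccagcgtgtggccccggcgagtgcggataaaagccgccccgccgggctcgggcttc
ID3: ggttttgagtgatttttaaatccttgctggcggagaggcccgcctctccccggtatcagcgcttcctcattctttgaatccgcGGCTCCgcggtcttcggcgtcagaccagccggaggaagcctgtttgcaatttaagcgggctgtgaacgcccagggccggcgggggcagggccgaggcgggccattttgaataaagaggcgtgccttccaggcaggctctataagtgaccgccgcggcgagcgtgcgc
ID4: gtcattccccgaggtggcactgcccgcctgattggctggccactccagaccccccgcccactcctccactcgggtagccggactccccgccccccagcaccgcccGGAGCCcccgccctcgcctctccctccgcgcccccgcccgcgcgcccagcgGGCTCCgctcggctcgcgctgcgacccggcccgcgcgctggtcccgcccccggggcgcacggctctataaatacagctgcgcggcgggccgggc
GCLM: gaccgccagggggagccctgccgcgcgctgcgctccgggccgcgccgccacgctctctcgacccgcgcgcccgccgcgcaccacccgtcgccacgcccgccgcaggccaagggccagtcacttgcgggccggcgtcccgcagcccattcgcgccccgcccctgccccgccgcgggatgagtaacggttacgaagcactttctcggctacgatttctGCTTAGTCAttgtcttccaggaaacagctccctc
TIPARP: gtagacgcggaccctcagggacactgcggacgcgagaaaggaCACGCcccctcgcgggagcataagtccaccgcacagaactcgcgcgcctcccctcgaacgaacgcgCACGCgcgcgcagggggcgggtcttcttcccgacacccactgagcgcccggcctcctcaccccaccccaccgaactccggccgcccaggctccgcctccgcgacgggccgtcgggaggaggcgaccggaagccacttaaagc
The windows of ID1 and ID4 held 2 BMP matches each, that of ID3 held 1 and that of ID2 held 0. GCLM held 1 antioxidant match. The first TIPARP window held 2 xenobiotic matches and each of its other windows 0. The window of ATOH8, not printed here, held 1 BMP match. Over all 35116 windows, 39.6% held a BMP match, 10.9% the antioxidant core and 32.2% the xenobiotic core, so such matches are common, and a match is a description of the letters only.

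Totals ranged from 19429177 to 22750697 expected counts in the treated libraries and from 20506138 to 26917848 in the vehicle libraries. The share of counts from the mitochondrial chromosome, a sign of library composition, was 14.5 to 16.8% in treated libraries and 16.9 to 22.1% in vehicle libraries. Keratin genes of an epithelial line were present, with KRT8 at 2088 ± 83.3 CPM in treated and 2221 ± 84.2 CPM in vehicle libraries (SD, n = 3 each). EPCAM was low in both groups, at 4.18 ± 0.923 and 4.37 ± 0.482 CPM. The 22 markers of fibroblasts, immune, endothelial, blood and liver cells summed to 72.7 to 79.5 CPM in treated libraries and 87.5 to 98.4 CPM in vehicle libraries. Most of that sum was COL1A1, at 48, 43.9 and 48.9 CPM in treated and 57.1, 56.8 and 62.9 CPM in vehicle libraries. At 0 in every library of their group were 4 of the markers in treated and 2 in vehicle libraries. CPM is the usual library-size scaling of counts, here with trimmed mean of M-values (TMM) factors. In bulk RNA, fewer cells of a type and less RNA per cell cannot be told apart.

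Of 16854 genes tested, 1635 were higher and 1918 lower in treated than in vehicle cells (edgeR quasi-likelihood test, Benjamini-Hochberg adjusted p under 0.05), or 9.7% and 11.4%, and 21.1% in either direction. Most changes were small, since 133 genes, 0.789%, passed with at least a 2-fold change. Against the same vehicle libraries, 2116 genes passed at 100 µg/mL and 1602 at 20 µg/mL, or 12.6% and 9.51%. At 100 µg/mL 5.58% were higher and 6.98% lower, and at 20 µg/mL 4.26% were higher and 5.25% lower. Because these contrasts share their vehicle libraries, the doses were also compared directly. Between 500 and 20 µg/mL, 168 genes were higher and 178 lower, 0.997% and 1.06% of those tested and 2.05% together, and 0.0771% passed with at least a 2-fold change. Between 500 and 100 µg/mL, 99 were higher and 96 lower, 0.587% and 0.57%, 1.16% together, with 0.0356% at 2-fold or more. These direct contrasts hold no vehicle library.

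**Figure D1:**
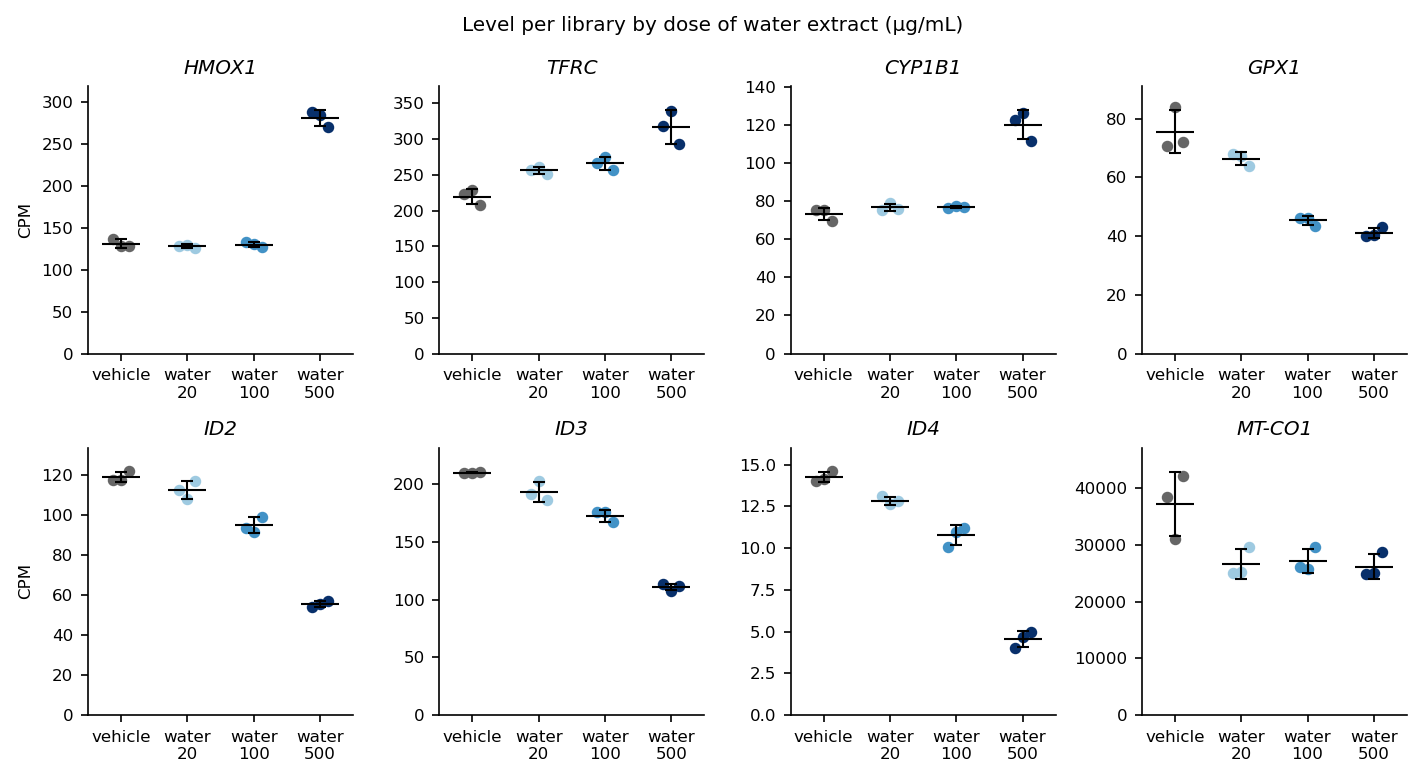
CPM of 8 genes in each library (points) with the group mean (horizontal line) and SD (error bar), for vehicle and for water extract at 20, 100 and 500 µg/mL, 3 libraries per group. HMOX1 and CYP1B1 stand high at 500 µg/mL alone, ID2, ID3 and ID4 are lowest at 500 µg/mL, GPX1 is low at 100 and 500 µg/mL, and MT-CO1 is below vehicle at every dose.

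Heme degradation was led by HMOX1, the largest rise by the rule for named genes. HMOX1, at chr22:35380361-35394214 on GRCh38, was at 288, 284 and 270.5 CPM in the treated libraries, against 137, 128 and 128 CPM in the vehicle libraries. The groups lay far apart, and the lower doses lay with vehicle, at 128, 130 and 125 CPM with 20 µg/mL and 132, 130.3 and 127 CPM with 100 µg/mL. Treated over 20 µg/mL, the log2 change was 1.14 ± 0.04, and treated over 100 µg/mL it was 1.11 ± 0.04 (edgeR adjusted p = 3.13e-14 and 4.88e-14). HMOX2, the constitutive heme oxygenase, and the biliverdin reductases BLVRA and BLVRB, which act next in the pathway, did not pass against vehicle, with log2 changes of -0.03, 0.13 and 0.08.

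Around HMOX1, heme handling moved little. Of 19 heme genes tested, 5 were higher and 2 lower in treated than in vehicle cells, beside 9.7% and 11.4% of all genes, and their median log2 change was 0.08 against 0.007 over all genes. FECH, ferrochelatase, which puts iron into heme, changed by 0.24 ± 0.05 (edgeR adjusted p = 0.00133), and ABCG2, an exporter of porphyrins among other substrates, by 0.18 ± 0.04 (edgeR adjusted p = 0.00149). The mitochondrial porphyrin transporter ABCB6 (log2 0.17) lost its call without treated replicate 1 (edgeR adjusted p = 0.0574), and the heme-regulated repressor BACH1 (log2 0.30) without vehicle replicate 3 or treated replicate 2 (edgeR adjusted p between 0.0529 and 0.0658). The 2 lower genes were small changes whose calls were not stable. UROS, an enzyme of heme synthesis (log2 -0.13), lost its call without vehicle replicates 1 or 2 or treated replicate 2 (edgeR adjusted p between 0.0555 and 0.126), and the heme exporter FLVCR1 (log2 -0.14) without vehicle replicates 1 or 3 or treated replicates 1, 2 or 3 (edgeR adjusted p between 0.0623 and 0.125). SLC48A1, which carries heme out of endolysosomes, did not pass against vehicle (log2 0.12) but was higher than at 20 µg/mL by 0.30 ± 0.06 (edgeR adjusted p = 0.0038). The members not passing against vehicle included ALAD, ALAS1, BLVRA, BLVRB, CPOX, HEBP1, HMOX2, PGRMC1, PPOX, SLC48A1 and UROD (log2 changes from -0.08 to 0.23).

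Some genes of iron uptake, sensing and export rose, 3 of 6, 2 of 6 and 1 of 2 tested, beside 9.7% of all genes. TFRC, the transferrin receptor, was at 318, 339 and 292 CPM in treated and 223, 228 and 207 CPM in vehicle libraries, with no overlap. Its log2 change was 0.53 ± 0.06 (edgeR adjusted p = 1.38e-06), beside 0.28 ± 0.06 at 100 and 0.22 ± 0.06 at 20 µg/mL against the same vehicle libraries. Between 500 and 20 µg/mL it changed by 0.31 ± 0.06 (edgeR adjusted p = 0.00355), a call lost without treated replicate 2 (edgeR adjusted p = 0.0552). FBXL5, the iron-sensing ligase subunit that removes iron regulatory protein, was at 41.7, 48.2 and 43 CPM in treated and 32.7, 29.9 and 33.2 CPM in vehicle libraries, and at 34.9, 30.4 and 33.8 CPM with 20 µg/mL. It rose by 0.47 ± 0.06 over vehicle and by 0.42 ± 0.06 over 20 µg/mL (edgeR adjusted p = 9.72e-06 and 0.000148). SLC40A1, ferroportin, the iron exporter, was at 35.7, 39 and 37.2 CPM in treated, against 31.8, 29.3 and 28.9 CPM in vehicle libraries, a log2 change of 0.31 ± 0.05 (edgeR adjusted p = 0.000249). Both genes were near vehicle at the lower doses, with log2 changes of 0.07 and -0.04 at 100 µg/mL.

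Of 22 iron genes tested, 7 were higher and 2 lower than in vehicle cells, beside 9.7% and 11.4% of all genes, with a median log2 change of 0.10. Against 20 µg/mL, where 0.997% of all genes were higher and 1.06% lower, 5 of the 22 were higher and 0 lower, namely TFRC, FBXL5, SLC40A1, SLC25A28 and FTH1. The iron importer SLC11A2 (log2 0.20) and the reductase STEAP3 (log2 0.16) also rose. HFE, which binds the transferrin receptor, lost its call (log2 0.24) without vehicle replicates 2 or 3 or treated replicates 1 or 2 (edgeR adjusted p between 0.056 and 0.163), and the mitochondrial iron carrier SLC25A28 (log2 0.19) without vehicle replicates 1 or 2 or treated replicates 1 or 2 (edgeR adjusted p between 0.0518 and 0.166). Its call against 20 µg/mL was lost whichever of the 6 libraries was left out (edgeR adjusted p between 0.0537 and 0.155). Lower were NCOA4, the receptor that delivers ferritin to lysosomes (log2 -0.13), whose call was lost without treated replicate 3 (edgeR adjusted p = 0.0591), and the iron-sulfur scaffold ISCU (log2 -0.14), lost without vehicle replicate 1 (edgeR adjusted p = 0.073). FTH1, the ferritin heavy chain, had 3965, 3952 and 4122 CPM in treated and 4042, 3699 and 4384 CPM in vehicle libraries, which overlapped (log2 -0.01). At 20 µg/mL it was lower than vehicle (log2 -0.21 ± 0.04), and treated exceeded 20 µg/mL by 0.20 ± 0.04 (edgeR adjusted p = 0.0156), a call lost whichever of the 6 libraries was left out (edgeR adjusted p between 0.0505 and 0.0675). The members not passing against vehicle included ACO1, CP, FTH1, FTL, IREB2, NFS1, PCBP1, PCBP2, SLC25A37, SLC39A14, TF and TFR2 (log2 changes from -0.10 to 0.18).

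Several other NRF2 targets rose modestly. GCLM, the regulatory subunit of glutamate-cysteine ligase, whose promoter is printed above, was at 211, 227 and 192 CPM in treated, against 158, 160.2 and 143 CPM in vehicle libraries. The log2 change was 0.45 ± 0.07 over vehicle and 0.39 ± 0.07 over 20 µg/mL (edgeR adjusted p = 8.32e-05 and 0.00245), while the lower doses stood at 0.06 and 0.06 against vehicle. SLC7A11, which imports cystine for glutathione, changed by 0.43 ± 0.07 (edgeR adjusted p = 7.56e-05) and did not pass against 20 µg/mL (log2 0.22). ABCC2, an exporter of glutathione conjugates, changed by 0.34 ± 0.03 (edgeR adjusted p = 5.84e-07), and was also higher than vehicle at 20 µg/mL (log2 0.18). MAFG, the small partner of NRF2, and SQSTM1, an autophagy receptor that binds KEAP1, rose by 0.18 ± 0.04 and 0.17 ± 0.03 (edgeR adjusted p = 0.00628 and 0.000737). NQO1, a quinone reductase that A549 cells express strongly, was at 1326, 1346 and 1269 CPM in treated and 1127, 1207 and 1060 CPM in vehicle libraries (log2 0.21 ± 0.04, edgeR adjusted p = 0.00147).

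Of 37 NRF2 targets tested, 15 were higher and 3 lower in treated than in vehicle cells, beside 9.7% and 11.4% of all genes, and the median log2 change was 0.10. The higher count was 8 or 9 without treated replicate 1 or 2 or without vehicle replicate 3. Against 20 µg/mL, 7 were higher and 0 lower, beside 0.997% and 1.06% of all genes. Of these 7, ABCC2 lost the call without treated replicate 1 or 20 µg/mL replicates 1 or 2 (edgeR adjusted p between 0.0633 and 0.106), MAFG without treated replicate 2 or 20 µg/mL replicate 3 (edgeR adjusted p between 0.0797 and 0.114), SQSTM1 without treated replicates 1 or 2 or 20 µg/mL replicate 3 (edgeR adjusted p between 0.0813 and 0.0889) and GCLC without treated replicates 1 or 2 or 20 µg/mL replicates 1, 2 or 3 (edgeR adjusted p between 0.0861 and 0.257). The call of FTH1, also among these 7, was lost whichever of the 6 libraries was left out (edgeR adjusted p between 0.0505 and 0.0675). Among the genes lower than vehicle were GPX2 and CBR1. These and GCLC, AKR1B10, AKR1C2, KEAP1, SRXN1, TXN and UGDH, with log2 changes from -0.33 (GPX2) to 0.18 (KEAP1), all lost their call without treated replicate 2 (edgeR adjusted p between 0.0504 and 0.237). Without vehicle replicate 3 it was lost for the same genes except GCLC and CBR1, without treated replicate 1 except GPX2 and UGDH, without vehicle replicate 1 for AKR1B10, AKR1C2, CBR1, KEAP1 and TXN, and for CBR1 also without vehicle replicate 2 or treated replicate 3 (highest edgeR adjusted p 0.239). AKR1C2 also shares reads with close paralogs, so its value is uncertain. A549 is known to carry a mutated KEAP1, and NFE2L2, the NRF2 gene, did not pass (log2 -0.06).

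Of 11 genes of the aryl hydrocarbon receptor list, 4 rose at 500 µg/mL. CYP1B1, a cytochrome P450 at chr2:38066973-38109902, was at 122, 126 and 112 CPM in treated and 75.3, 75.3 and 69.6 CPM in vehicle libraries, against 75.4, 78.8 and 76.1 CPM with 20 µg/mL and 76.6, 77.6 and 76.9 CPM with 100 µg/mL. All libraries of the lower doses lay below all treated libraries, and treated exceeded 20 µg/mL by 0.65 ± 0.05 and 100 µg/mL by 0.64 ± 0.05 (edgeR adjusted p = 9.41e-09 and 1.39e-08). TIPARP, an ADP-ribosyltransferase that feeds back on the receptor, was at 45.7, 53.7 and 48.9 CPM in treated and 37.4, 35.5 and 36.5 CPM in vehicle libraries. It changed by 0.44 ± 0.05 over vehicle and 0.45 ± 0.05 over 20 µg/mL (edgeR adjusted p = 7.92e-06 and 2.52e-05). CYP1A1, the best-known target, was near the limit of detection, with 0.694, 0.85 and 1.07 CPM in treated and 0.276, 0.501 and 0.23 CPM in vehicle libraries (log2 1.38 ± 0.33, edgeR adjusted p = 0.00404). NQO1, given above, is the fourth of the 4 members that were higher, of 11 tested, with 0 lower, beside 9.7% and 11.4% of all genes, and a median of 0.10. The members not passing included AHR, AHRR, ALDH3A1, ARNT, CYP2S1 and UGT1A6 (log2 changes from -0.10 to 0.14), with AHR the receptor, ARNT its partner and AHRR a repressor.

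All 4 ID genes fell at 500 µg/mL, and ID2, ID3 and ID4 were in order of dose. ID2 was at 54.2, 55.7 and 57.1 CPM in treated and 118, 118 and 122 CPM in vehicle libraries, with 113, 108 and 117 CPM at 20 and 93.7, 91.7 and 99.4 CPM at 100 µg/mL. ID3 was at 113, 108 and 112 CPM in treated and 209.8, 209.7 and 211 CPM in vehicle libraries, with 191, 203 and 186 CPM at 20 and 176, 176 and 167 CPM at 100 µg/mL. For both genes the 100 µg/mL libraries lay between vehicle and treated without overlap. ID4, the least expressed, was at 4.03, 4.67 and 4.94 CPM in treated and 14, 14.1 and 14.6 CPM in vehicle libraries, with 13.1, 12.6 and 12.8 CPM at 20 and 10.1, 11 and 11.2 CPM at 100 µg/mL. ID1 took another course at the low dose, with 133, 127 and 126 CPM in treated and 177, 184 and 169 CPM in vehicle libraries, but 210.5, 213 and 190.2 CPM at 20 and 188, 185 and 172 CPM at 100 µg/mL. It was higher than vehicle at 20 µg/mL (log2 0.21 ± 0.05, edgeR adjusted p = 0.012), a call lost without vehicle replicate 3 or 20 µg/mL replicates 1 or 2 (edgeR adjusted p between 0.066 and 0.0755), and lower at 500 µg/mL.

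Against vehicle, the log2 changes at 500 µg/mL were -0.46 ± 0.05 for ID1, -1.10 ± 0.05 for ID2, -0.92 ± 0.04 for ID3 and -1.65 ± 0.08 for ID4, with edgeR adjusted p of 3.15e-06, 1.15e-12, 3.85e-13 and 2.46e-12. Against 20 µg/mL they were -0.67 ± 0.05, -1.02 ± 0.05, -0.80 ± 0.04 and -1.50 ± 0.08, and each passed (edgeR adjusted p = 1.31e-08, 6.21e-12, 6.21e-12 and 2.68e-11). Each also passed against 100 µg/mL, where the log2 changes were -0.50, -0.77, -0.64 and -1.25.

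Beyond the ID genes, a few BMP genes fell and most did not pass. ATOH8, a helix-loop-helix factor induced by BMP in several cell types, was at 6.24, 4.8 and 6.57 CPM in treated and 16.2, 15.7 and 14.8 CPM in vehicle libraries, a log2 change of -1.41 ± 0.10 (edgeR adjusted p = 3.71e-09), and it passed against 100 µg/mL as well (edgeR adjusted p = 5.99e-06). HEY1, a NOTCH and BMP target, was at 1.47, 1.66 and 1.68 CPM in treated and 3.04, 3.06 and 2.25 CPM in vehicle libraries (log2 -0.80 ± 0.16, edgeR adjusted p = 0.000867). The inhibitory SMAD6 changed by -0.15 ± 0.04 and the ligand BMP6 by -0.57 ± 0.07 (edgeR adjusted p = 0.0105 and 1.34e-05). Higher were GREM1, gremlin, which binds BMP ligands and blocks them (log2 0.49 ± 0.10, edgeR adjusted p = 0.00124), and GDF15, a stress-induced member of the ligand family (log2 0.35 ± 0.07, edgeR adjusted p = 0.000701). BMPR1B, a type I receptor (log2 0.19), lost its call without vehicle replicates 1 or 3 or treated replicate 1 (edgeR adjusted p between 0.0706 and 0.116).

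In all, 3 of 29 BMP and ID genes were higher and 8 lower, beside 9.7% and 11.4% of all genes, with a median log2 change of -0.15. Against 20 µg/mL, 1 was higher and 8 were lower, beside 0.997% and 1.06% of all genes. Against 100 µg/mL, 1 was higher and 6 were lower, beside 0.587% and 0.57%. The calls of HEY1 and SMAD6 against 20 µg/mL were not stable: HEY1 lost it without treated replicate 1 or 20 µg/mL replicate 2 (edgeR adjusted p between 0.0764 and 0.081), and SMAD6 without 20 µg/mL replicates 1 or 3 or treated replicate 2 (edgeR adjusted p between 0.0571 and 0.0637). GREM1 lost its call against 20 µg/mL without treated replicates 1 or 2 or 20 µg/mL replicates 1 or 3 (edgeR adjusted p between 0.0565 and 0.0751). Its call against 100 µg/mL was lost in DESeq2 and whichever of the 6 libraries was left out. The members not passing against vehicle included ACVR1, BAMBI, BMP2, BMP4, BMPR1A, BMPR2, CHRD, ENG, FST, MSX2, NOG, SMAD1, SMAD4, SMAD5, SMAD7, SMAD9 and SMURF1 (log2 changes from -0.80 to 0.19).

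Several selenoprotein genes fell, and for GPX1 and SEPW1 nearly the whole fall was present at 100 µg/mL. The list of selenoproteins was drawn up after the values had been seen. GPX1, the cytosolic glutathione peroxidase, was at 39.9, 40.4 and 43 CPM in treated and 70.7, 84 and 72.1 CPM in vehicle libraries, with 67.9, 67.4 and 63.8 CPM at 20 and 46.2, 46.2 and 43.6 CPM at 100 µg/mL. The log2 change from vehicle was -0.88 ± 0.06 (edgeR adjusted p = 1.93e-09), and treated differed from 20 µg/mL (-0.69 ± 0.06, edgeR adjusted p = 1.89e-07) but did not pass against 100 µg/mL (-0.14 ± 0.07). SEPW1, the small redox protein selenoprotein W, was at 35.7, 34 and 38.1 CPM in treated and 62.3, 64.4 and 58.7 CPM in vehicle libraries, 49.6, 47.2 and 44.8 CPM at 20 and 37.8, 39 and 36.2 CPM at 100 µg/mL. Its log2 change was -0.78 ± 0.05 over vehicle and -0.40 ± 0.05 over 20 µg/mL (edgeR adjusted p = 2.98e-10 and 5.36e-05). At 20 µg/mL SEPW1 was already lower than vehicle (log2 -0.39), while GPX1 did not pass (log2 -0.18).

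GPX3, the secreted peroxidase, was at 12, 12.4 and 12.4 CPM in treated and 20.5, 19.6 and 23.1 CPM in vehicle libraries (log2 -0.78 ± 0.08, edgeR adjusted p = 3.56e-07), and the log2 change from 20 µg/mL was -0.53 ± 0.08. GPX4, which reduces lipid peroxides in membranes, changed by -0.39 ± 0.07 (edgeR adjusted p = 0.000167) and did not pass between 500 and 20 µg/mL (-0.14 ± 0.07). SELT, selenoprotein T of the endoplasmic reticulum, changed by -0.57 ± 0.04, SEPN1, selenoprotein N, by -0.32 ± 0.07, and the thyroid hormone deiodinase DIO2 by -0.54 ± 0.04 (edgeR adjusted p = 1.93e-09, 0.00131 and 4.89e-09). SEPHS2, itself a selenoprotein that makes the selenium donor, went the other way, at 34.4, 36 and 34.3 CPM in treated and 27.1, 25.9 and 23.5 CPM in vehicle libraries (log2 0.45 ± 0.07, edgeR adjusted p = 6.64e-05), with 0.37 already at 20 µg/mL. TXNRD1, cytosolic thioredoxin reductase and an NRF2 target, did not pass (log2 0.09).

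Of 22 selenoprotein genes tested, 2 were higher and 11 lower than in vehicle cells, beside 9.7% and 11.4% of all genes, with a median log2 change of -0.11. Against 20 µg/mL 0 were higher and 5 lower, beside 0.997% and 1.06%, namely GPX1, GPX3, SEPW1, SELT and DIO2. Of the 6 genes of the selenocysteine machinery list, 0 were higher and 0 lower than in vehicle in edgeR. GPX2 lost its call without vehicle replicate 3 or treated replicate 2 (edgeR adjusted p between 0.0504 and 0.0676), SELM without vehicle replicate 2 or treated replicate 2 (edgeR adjusted p between 0.103 and 0.16), C11orf31 without vehicle replicate 2 or treated replicates 1, 2 or 3 (edgeR adjusted p between 0.0571 and 0.276) and SELO, the other higher gene (log2 0.37), without treated replicate 2 (edgeR adjusted p = 0.0509). GPX2 and GPX4 are in the bin of shortest transcripts, whose median was lower, as given further on, and no length was matched to GPX1.

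**Figure D2:**
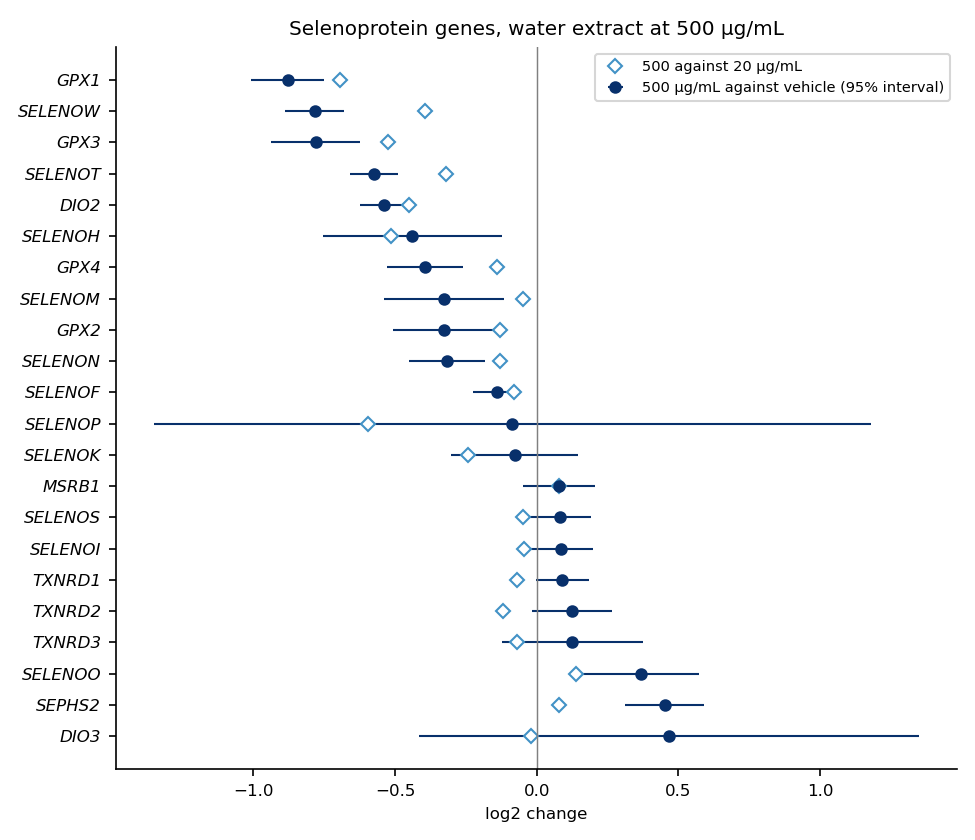
Log2 change of each of the 22 selenoprotein genes tested, for 500 µg/mL against vehicle (filled circles, bars the 95% interval) and for 500 against 20 µg/mL (open diamonds). Current gene names are used, so SEPW1 is SELENOW, SELT is SELENOT, SEPN1 is SELENON and C11orf31 is SELENOH, and GPX1 is the lowest against vehicle while SEPHS2 has an interval above 0.

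Of the 4 metallothionein genes tested 3 fell, and a zinc importer rose. MT2A, the main metallothionein here, was at 35.3, 33.8 and 36.2 CPM in treated and 50.8, 53.3 and 59.9 CPM in vehicle libraries (log2 -0.64 ± 0.06, edgeR adjusted p = 3.56e-07), and at log2 changes of -0.35 and -0.36 from vehicle at 20 and 100 µg/mL. MT1X changed by -0.53 ± 0.09 and MT1A by -0.90 ± 0.21 (edgeR adjusted p = 0.000204 and 0.00331), while MT1F did not pass (log2 -0.17). SLC39A10, which brings zinc into the cell, rose to 127, 138 and 125 CPM in treated libraries, against 98.6, 98.4 and 96.9 CPM in vehicle libraries (log2 0.41 ± 0.04, edgeR adjusted p = 1.83e-06), and was higher than at 20 µg/mL by 0.34 ± 0.04. Of 10 genes of this group tested, 1 was higher and 3 lower than in vehicle, beside 9.7% and 11.4% of all genes. Compared with 20 µg/mL, 1 was higher and 2 were lower, beside 0.997% and 1.06%. The call of MT2A against 20 µg/mL was lost without treated replicates 1 or 2 or 20 µg/mL replicate 3 (edgeR adjusted p between 0.0504 and 0.104), and that of MT1X without treated replicates 1, 2 or 3 or 20 µg/mL replicates 1 or 2 (edgeR adjusted p between 0.0929 and 0.149). Metallothionein genes are near-identical copies, so reads may be split among them, and 4 of the 8 were too low to be tested.

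Some chaperones of the endoplasmic reticulum differed between doses as well as, or without, a difference from vehicle. The folding enzyme PDIA4 rose by 0.18 ± 0.03 over vehicle (edgeR adjusted p = 0.000359) and the co-chaperone DNAJB9 by 0.46 ± 0.11 (edgeR adjusted p = 0.0049). CALR, calreticulin, and PDIA3, its partner, were at log2 changes of 0.04 and -0.01 from vehicle and did not pass, yet were 0.22 ± 0.04 and 0.18 ± 0.04 over 20 µg/mL (edgeR adjusted p = 0.000749 and 0.00733). At 20 µg/mL both were lower than vehicle (log2 -0.18 and -0.19). HSP90B1 followed them, at 0.14 over vehicle, lost without vehicle replicate 3 or treated replicate 1 (edgeR adjusted p between 0.0602 and 0.0842). Of 22 genes of the unfolded protein response, 7 were higher and 3 lower than in vehicle, beside 9.7% and 11.4% of all genes, and 4 higher and 0 lower than at 20 µg/mL, beside 0.997% and 1.06%. Without vehicle replicate 3 or treated replicate 1 the higher count against vehicle was 3 or 4. The lower genes were DNAJB11, SYVN1 and XBP1, with log2 changes of -0.19, -0.23 and -0.20, and SYVN1 lost its call without vehicle replicates 1 or 3 or treated replicates 1 or 2 (edgeR adjusted p between 0.0608 and 0.0853). The call of PDIA3 against 20 µg/mL was lost without 20 µg/mL replicate 2 (edgeR adjusted p = 0.0612), that of PDIA4 without treated replicates 1 or 2 or 20 µg/mL replicates 1 or 3 (edgeR adjusted p between 0.0921 and 0.158) and that of HSP90B1 without treated replicate 1 or 20 µg/mL replicate 3 (edgeR adjusted p between 0.0563 and 0.0578).

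Among liver-type secreted proteins, which A549 cells are known to make in part, C5, a complement component, was at 144, 149 and 136 CPM in treated and 118, 128 and 118 CPM in vehicle libraries, with no overlap (log2 0.24 ± 0.04, edgeR adjusted p = 0.000542). The fibrinogen chain FGA rose by 0.24 ± 0.05 (edgeR adjusted p = 0.00091). The fibrinogen chain FGB did not pass against vehicle (log2 0.12) and exceeded 20 µg/mL by 0.25 ± 0.04 (edgeR adjusted p = 0.00221). Of 14 genes tested, 6 were higher and 1 lower than in vehicle, beside 9.7% and 11.4% of all genes. FGG (log2 0.17) lost its call without treated replicate 2 (edgeR adjusted p = 0.0709), CFB (log2 0.66) without vehicle replicates 1, 2 or 3 or treated replicates 1 or 3 (edgeR adjusted p between 0.06 and 0.262), and PLG, the lower gene (log2 -0.85), without vehicle replicates 1 or 3 or treated replicates 1 or 2 (edgeR adjusted p between 0.0671 and 0.174). C3, the central complement component (log2 0.13), lost it whichever of the 6 libraries was left out (edgeR adjusted p between 0.0519 and 0.124). C5 exceeded 20 µg/mL by 0.24 ± 0.04, a call lost without treated replicate 2 (edgeR adjusted p = 0.0607).

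Several genes of the transforming growth factor beta response and of mesenchymal state fell. TGFB1, the ligand, was at 150.1, 130.5 and 162 CPM in treated and 204, 184 and 230 CPM in vehicle libraries (log2 -0.48 ± 0.07, edgeR adjusted p = 5.32e-05). PMEPA1, a feedback inhibitor of the pathway, changed by -0.37 ± 0.03, TGFBI, a secreted matrix protein, by -0.29 ± 0.04 and TAGLN, an actin-binding protein, by -0.54 ± 0.06 (edgeR adjusted p = 4.8e-08, 2.5e-05 and 3.03e-06). The repressors of E-cadherin SNAI1 and SNAI2 changed by -0.67 ± 0.08 and -0.86 ± 0.20 (edgeR adjusted p = 5.34e-06 and 0.00281). CDH1, E-cadherin, was at 38.2, 40.9 and 41.9 CPM in treated and 30.8, 30.9 and 33.6 CPM in vehicle libraries (log2 0.34 ± 0.07, edgeR adjusted p = 0.000631). It belongs to a list of epithelial identity, of which 17 genes were tested. Of these, 2 were higher and 3 lower than in vehicle, with a median of -0.07. Of the 28 genes of the transforming growth factor beta and mesenchymal list, only THBS1, thrombospondin, was higher (log2 0.22). In that list 11 were lower, beside 9.7% and 11.4% of all genes, with a median of -0.09. With 20 µg/mL, 1 was higher and 6 were lower than in the same vehicle libraries, beside 4.26% and 5.25%. The median there was similar, at -0.10. Between 500 and 20 µg/mL 0 were higher and 2 lower, beside 0.997% and 1.06%, PMEPA1 (-0.23 ± 0.03) and TGFBI (-0.20 ± 0.04), and the call of TGFBI was lost without 20 µg/mL replicate 1 or treated replicate 3 (edgeR adjusted p between 0.0543 and 0.0592). The fibroblast markers, whose sum was also lower in treated libraries, share COL1A1 as their main part, and their part in this result was not tested.

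Matrix genes were taken by family. Of 10 laminin and partner genes, 7 were higher and 0 lower than in vehicle, beside 9.7% and 11.4% of all genes, and of 11 collagen genes 4 were higher and 2 lower, with a median of -0.01. At 100 and 20 µg/mL, 6 and 4 of the 10 laminin and partner genes were higher than in the same vehicle libraries, with 0 lower at either dose. Of all genes, 5.58% and 4.26% were higher and 6.98% and 5.25% lower at these doses. Between 500 and 20 µg/mL, 1 of the 10 was higher and 0 lower, beside 0.997% and 1.06%. LAMA3, the laminin chain of epithelial basement membrane, was at 93.4, 98.5 and 95.1 CPM in treated and 70.2, 77.6 and 69.2 CPM in vehicle libraries (log2 0.41 ± 0.04, edgeR adjusted p = 1.42e-06), and 0.31 ± 0.04 over 20 µg/mL. LAMA5 changed by 0.31 ± 0.04 over vehicle (edgeR adjusted p = 2.19e-06) and by 0.05 ± 0.04 over 20 µg/mL, which did not pass. COL4A1, the main chain of collagen IV, fell to 78.6, 78 and 79.3 CPM in treated, against 102, 104 and 106 CPM in vehicle libraries (log2 -0.40 ± 0.03, edgeR adjusted p = 1.9e-08). At 20 and 100 µg/mL COL4A1 was near vehicle (log2 -0.03 and 0.01), and treated differed from 100 µg/mL by -0.41 ± 0.03 (edgeR adjusted p = 2.64e-08). COL5A1 also fell (-0.32 ± 0.04), and COL12A1 and COL4A4 rose by 0.44 ± 0.06 and 0.41 ± 0.07 (edgeR adjusted p = 3.36e-05, 2.17e-05 and 0.000124). COL4A2, another collagen IV gene, did not pass against vehicle at 500 µg/mL, except without vehicle replicate 2 (edgeR adjusted p = 0.0146). Over all 28 matrix genes, 12 were higher and 4 lower, against the same shares of all genes, the others lower being the collagen-modifying PLOD2, lost without vehicle replicate 1 (edgeR adjusted p = 0.0528), and PLOD3, lost without vehicle replicate 3 or treated replicate 2 (edgeR adjusted p between 0.0841 and 0.0947). Their median was 0.08. Several of these are long transcripts, and the rise of long transcripts as a class is given further on.

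NR4A1, an orphan nuclear receptor gene of the immediate early class, was at 17.2, 16 and 17.1 CPM in treated and 33, 30.1 and 34 CPM in vehicle libraries, with 32.5, 30.1 and 29.2 CPM at 20 and 25.8, 26 and 28.6 CPM at 100 µg/mL. Its log2 change was -0.95 ± 0.07 over vehicle and -0.87 ± 0.07 over 20 µg/mL (edgeR adjusted p = 1.36e-09 and 9.41e-09). The AP-1 genes JUND and FOS changed by -0.41 ± 0.06 and -0.52 ± 0.14, and DUSP1, a phosphatase that switches off MAP kinases, by -0.27 ± 0.04 (edgeR adjusted p = 7.03e-05, 0.00815 and 6.89e-05). Of 30 immediate early and feedback genes, 0 were higher and 12 lower than in vehicle, beside 9.7% and 11.4% of all genes, with a median of -0.13. Set against 20 µg/mL, 0 were higher and 3 lower, beside 0.997% and 1.06%. The third of these beside NR4A1 and DUSP1 was KLF4 (-0.37 ± 0.09), whose call was lost whichever of the 6 libraries was left out (edgeR adjusted p between 0.0537 and 0.186).

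Some glycolytic and hypoxia-responsive genes fell slightly. SLC2A3, a glucose transporter, was at 36.6, 35.9 and 41.8 CPM in treated and 46.2, 48.6 and 48.4 CPM in vehicle libraries (log2 -0.33 ± 0.06, edgeR adjusted p = 0.000191), with -0.03 and 0.02 at 20 and 100 µg/mL. LDHA, lactate dehydrogenase, changed by -0.27 ± 0.04, HK1, hexokinase, by -0.27 ± 0.05, and the secreted lipase inhibitor ANGPTL4 by -0.26 ± 0.04 (edgeR adjusted p = 1.28e-05, 0.00119 and 0.000286). Of 36 genes, 2 were higher and 13 lower than in vehicle, beside 9.7% and 11.4% of all genes, with a median of -0.07. Relative to 20 µg/mL, 0 were higher and 5 lower, beside 0.997% and 1.06%, namely SLC2A3, LDHA, HK1, ANGPTL4 and ALDOA. The 2 higher genes, ADM and PFKFB3, lost their calls, ADM without vehicle replicates 1 or 3 or treated replicates 1 or 3 (edgeR adjusted p between 0.051 and 0.122) and PFKFB3 without vehicle replicate 3 or treated replicate 1 (edgeR adjusted p between 0.0541 and 0.0677). The call of LDHA against 20 µg/mL was lost without treated replicates 1 or 3 (edgeR adjusted p between 0.0592 and 0.0792), and that of HK1 without treated replicate 2 or 20 µg/mL replicate 2 (edgeR adjusted p between 0.0612 and 0.0627) and that of ALDOA whichever of the 6 libraries was left out (edgeR adjusted p between 0.0617 and 0.147).

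**Figure D3:**
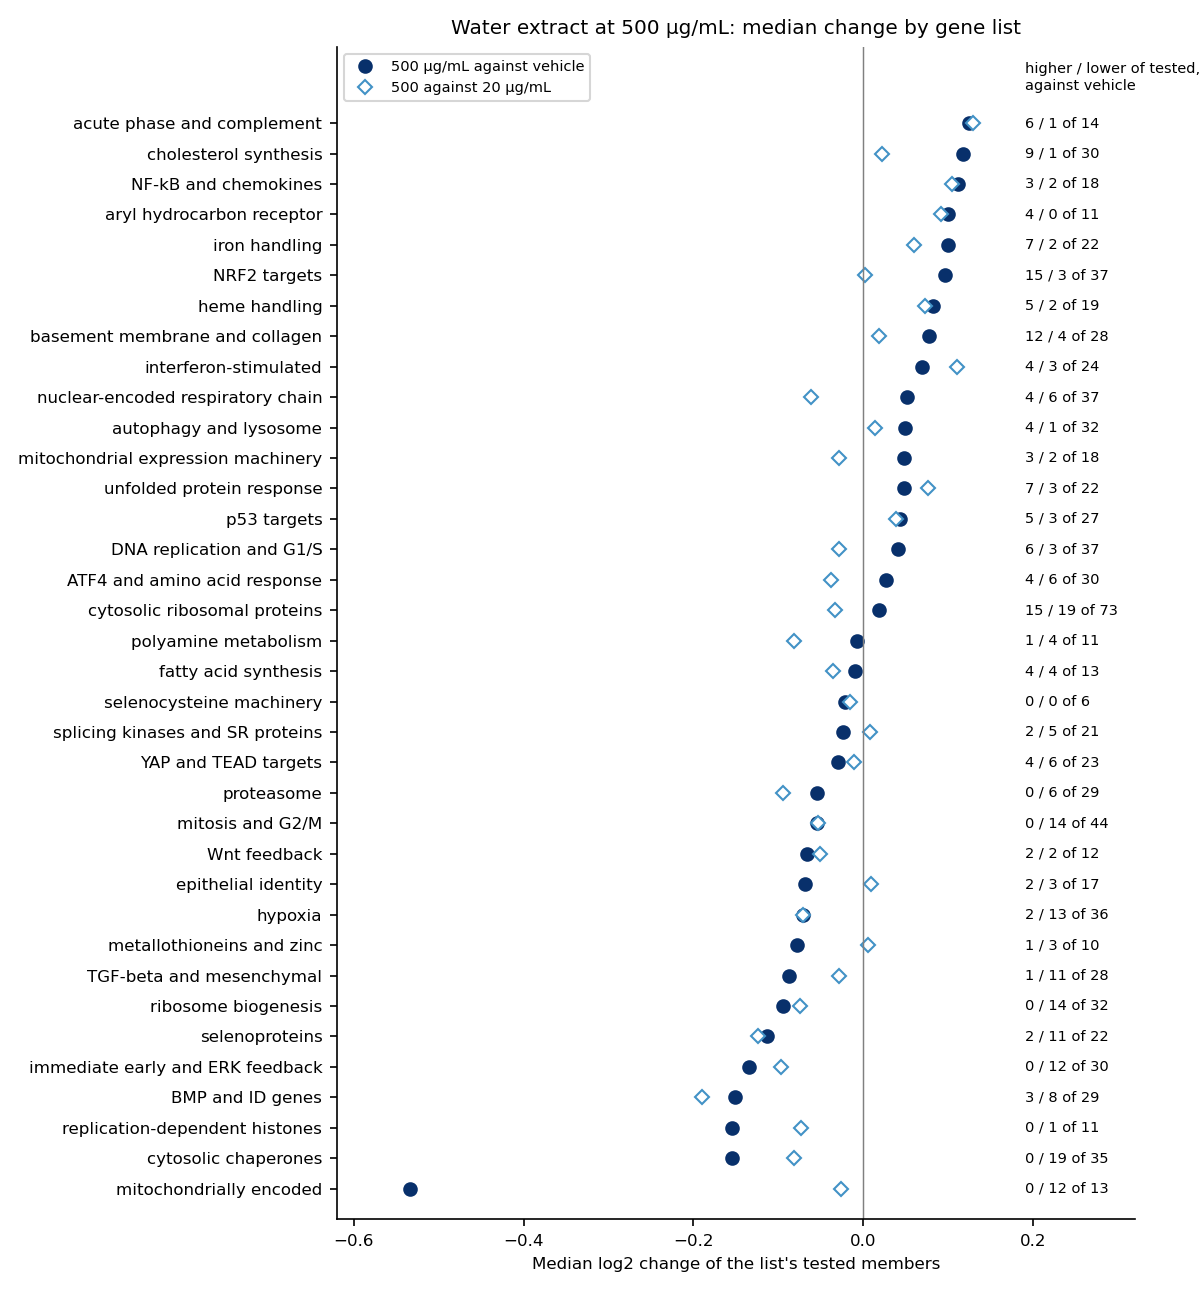
Median log2 change of the tested members of each gene list, for 500 µg/mL against vehicle (filled circles) and for 500 against 20 µg/mL (open diamonds), with the members higher and lower than vehicle at edgeR adjusted p under 0.05 printed at the right. The mitochondrially encoded list lies lowest against vehicle, at -0.53, and near 0 between the doses, whereas the BMP and ID list lies below 0 in both.

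Mitochondrially encoded transcripts were lower than vehicle by similar amounts at 500 and 20 µg/mL. Of the 13 mitochondrially encoded protein genes, 12 were lower than in vehicle at 500 and 12 at 20 µg/mL, beside 11.4% and 5.25% of all genes, with medians of -0.53 and -0.52, and 0 differed between these doses in edgeR. MT-CO1, a subunit of cytochrome oxidase, was at 24770, 25050 and 28670 CPM in treated and 38490, 30940 and 42090 CPM in vehicle libraries (log2 -0.51 ± 0.10, edgeR adjusted p = 0.000988), and -0.03 ± 0.10 over 20 µg/mL. The lowest vehicle library stood close to the highest treated library, and the vehicle libraries spread more than the treated ones. MT-ND4L was the gene that did not pass (log2 -0.04), and it overlaps MT-ND4, as MT-ATP8 overlaps MT-ATP6, so reads cannot be assigned to each with certainty. Of 37 nuclear genes of the respiratory chain, 4 were higher and 6 lower, beside 9.7% and 11.4% of all genes, and the lower included UQCRB (-0.50). The higher count was 11 without vehicle replicate 2, 7 without treated replicate 3 and 2 without any 1 of the other libraries. All treated libraries of the batch, with either extract, held 14.2 to 18.6% mitochondrial counts, and whether the difference belongs to treatment or to these 3 vehicle libraries cannot be told apart. With mitochondrial genes left out of the library sizes and the fit, 3530 genes passed between treated and vehicle, against 3553 with them.

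Many cytosolic chaperone genes also fell. Of 35 tested, 0 were higher and 19 lower than in vehicle at 500 µg/mL, beside 9.7% and 11.4% of all genes, with a median of -0.15. At 20 µg/mL 1 was higher and 9 were lower than in vehicle, beside 4.26% and 5.25%, with a median of -0.07. Between the doses 0 were higher and 3 lower than at 20 µg/mL, beside 0.997% and 1.06%. HSPB1, the small heat shock protein HSP27, was at 450, 427 and 495 CPM in treated and 626, 694 and 692 CPM in vehicle libraries (log2 -0.55 ± 0.07, edgeR adjusted p = 7.92e-06), beside -0.48 at 20 µg/mL. HSP90AB1 and HSP90AA1, the cytosolic HSP90 forms, changed by -0.29 ± 0.03 and -0.24 ± 0.04, the constitutive HSP70 gene HSPA8 by -0.22 ± 0.04 and the HSP90 co-chaperone CHORDC1 by -0.34 ± 0.04 (edgeR adjusted p = 3.15e-06, 0.000497, 0.000405 and 8.48e-06). Of these, HSP90AB1 was also lower than at 20 µg/mL (-0.14 ± 0.03), a call lost whichever of the 6 libraries was left out (edgeR adjusted p between 0.0604 and 0.0838). CRYAB, alpha-B crystallin, was the exception in size, at 0.867, 0.722 and 1.27 CPM in treated and 4.18, 3.61 and 5.24 CPM in vehicle libraries, with 2.91, 3.02 and 3.56 CPM at 20 µg/mL. Its log2 change was -2.21 ± 0.21 over vehicle and -1.75 ± 0.22 over 20 µg/mL (edgeR adjusted p = 2.13e-07 and 3.58e-05). FKBP4, a further HSP90 co-chaperone, was the third lower gene (-0.15 ± 0.03), lost without 20 µg/mL replicate 1 or treated replicate 3 (edgeR adjusted p between 0.0533 and 0.063).

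Changes of ribosome and cell cycle genes were slight. Of 32 ribosome biogenesis genes, 0 were higher and 14 lower than in vehicle (median -0.10), beside 9.7% and 11.4% of all genes, and 0 higher and 2 lower than at 20 µg/mL, beside 0.997% and 1.06%, the processing factors NOP16 (-0.20), lost without treated replicates 1, 2 or 3 or 20 µg/mL replicates 1 or 2 (edgeR adjusted p between 0.0524 and 0.166), and NOC2L (-0.19), lost without treated replicates 1 or 2 or 20 µg/mL replicates 2 or 3 (edgeR adjusted p between 0.0524 and 0.112). Of 73 ribosomal protein genes, 15 were higher and 19 lower than in vehicle (median 0.02), beside 9.7% and 11.4% of all genes. Against 20 µg/mL 0 passed in either direction, beside 2.05% of all genes. The higher count against vehicle was 7 without vehicle replicate 1, 3 without treated replicate 1 and 2 without vehicle replicate 3 or treated replicate 2. Of 44 genes of mitosis, 0 were higher and 14 lower than in vehicle (median -0.06), beside 9.7% and 11.4% of all genes. Against 20 µg/mL 0 were higher and 1 lower, beside 0.997% and 1.06%. This was the Aurora A kinase gene AURKA (-0.18), lost without 20 µg/mL replicate 3 (edgeR adjusted p = 0.0561). Of the chromosomal passenger complex, whose kinase Aurora B is named in the title of the series, 1 of the 4 genes, AURKB, was lower than in vehicle, and none of AURKB, INCENP, BIRC5 and CDCA8 passed between 500 and 20 µg/mL (log2 -0.06, -0.04, -0.06 and -0.07). CCND1, cyclin D1, differed by dose, at 334, 332 and 344 CPM in treated and 367, 402 and 376 CPM in vehicle libraries (log2 -0.18 ± 0.03), with -0.20 ± 0.03 over 20 µg/mL (edgeR adjusted p = 0.00059 and 0.0014).

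Changes from vehicle followed transcript length at every dose. The 13616 protein-coding genes tested with a length in GENCODE release 29 were put into 10 bins of near-equal size by their longest transcript. In the bin of shortest transcripts, 207 to 1643 nucleotides, 66 genes were higher and 319 lower in treated than in vehicle cells, with a median log2 change of -0.08. In the bin of longest transcripts, 7650 to 109224 nucleotides, 399 were higher and 64 lower, with a median of 0.105. At 20 µg/mL the medians of these bins were -0.04 and 0.07 against vehicle, and between 500 and 20 µg/mL they were -0.05 and 0.04. Among the genes above, LAMA3, LAMA5, COL4A4, COL5A1 and COL12A1 belong to the bin of longest transcripts, and ID1, ID3, GPX4, MT2A and HSPB1 to the shortest. HMOX1 and ID2 are in bin 2, counted from the shortest, whose median was -0.05, CYP1B1 and TFRC in bin 8, whose median was 0.035. A bin median does not show the spread of single genes, and the part of length in any of these changes was not tested.

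**Figure D4:**
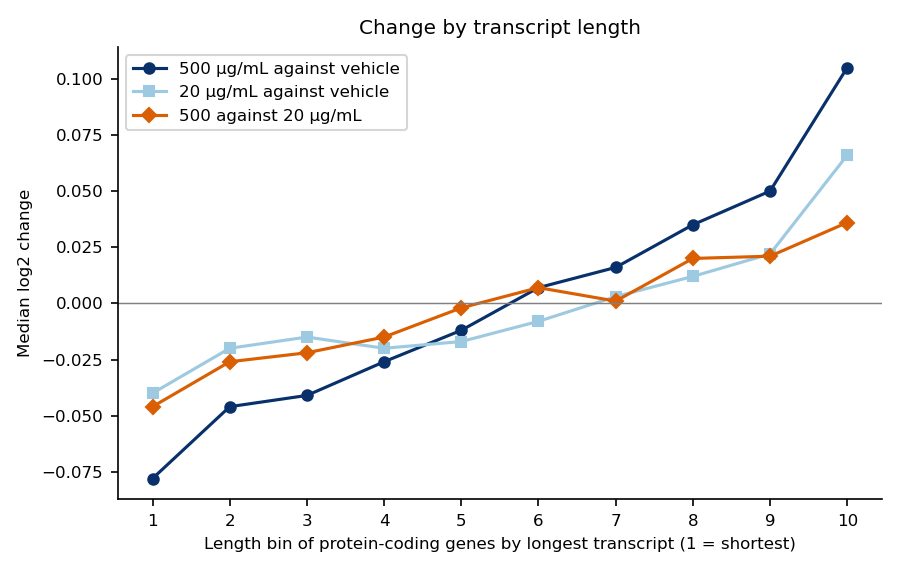
Median log2 change of protein-coding genes in 10 bins of transcript length, for 500 and 20 µg/mL against vehicle and for 500 against 20 µg/mL. In each of the 3 comparisons the median is lowest in the bin of shortest and highest in the bin of longest transcripts, and 500 µg/mL against vehicle has the widest range, -0.08 to 0.105.

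The largest changes by the rule for named genes held further items. ZNF469, a zinc finger gene linked to corneal collagen, was at 89.4, 86.7 and 91 CPM in treated and 47.4, 41.8 and 49.4 CPM in vehicle libraries (log2 0.94 ± 0.05, edgeR adjusted p = 6.9e-12), and 0.77 ± 0.05 over 20 µg/mL. RNF213, a very large ubiquitin ligase, was at 967, 980.4 and 964 CPM in treated and 626, 691 and 637 CPM in vehicle libraries (log2 0.57 ± 0.04), with 0.26 ± 0.04 over 20 µg/mL. Both are among the longest transcripts, as are SYNE1 (0.61 ± 0.06), FCGBP (0.68 ± 0.17), FLNA (0.15 ± 0.03), AHNAK (0.32 ± 0.05) and PLEC (0.24 ± 0.04), and each of these passed against vehicle. The long noncoding RNA MIAT rose by 0.86 ± 0.11 (edgeR adjusted p = 1.08e-05), and its call against 20 µg/mL was lost without treated replicate 2 or 20 µg/mL replicate 2 (edgeR adjusted p between 0.0612 and 0.0679). PPL, periplakin of epithelial junctions, rose by 0.56 ± 0.10, and GPRIN2 by 0.62 ± 0.08 (edgeR adjusted p = 0.000298 and 1.59e-05). ZBED6, whose sequence lies within ZC3H11A, RNASE4, which shares its start with ANG, and CCDC144A, which has close paralogs, are uncertain, with log2 changes of 0.73, 0.65 and 0.61. HERC3 (0.71) lost its call without vehicle replicates 2 or 3 (edgeR adjusted p between 0.053 and 0.0949), and TMEM160 (0.63) without vehicle replicates 1 or 3 or treated replicates 1 or 2 (edgeR adjusted p between 0.0656 and 0.136).

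Among the falls, H19, an imprinted noncoding RNA, was at 45, 40.1 and 48.9 CPM in treated and 77.3, 82.2 and 85.7 CPM in vehicle libraries (log2 -0.88 ± 0.09, edgeR adjusted p = 3.6e-07), and -0.64 ± 0.09 over 20 µg/mL. ANKRD1, a target of the YAP and TEAD factors, was at 7.8, 8.41 and 9.33 CPM in treated and 12.4, 15 and 11.6 CPM in vehicle libraries (log2 -0.61 ± 0.10, edgeR adjusted p = 0.000123), and -0.58 ± 0.10 over 20 µg/mL. PTMS, parathymosin, and CNFN, cornifelin, both short, changed by -0.72 ± 0.09 and -0.88 ± 0.15 (edgeR adjusted p = 8.31e-06 and 0.000189). RPS26 (-0.72) shares reads with many pseudogenes and is uncertain. Between 500 and 100 µg/mL, the 6 largest rises were HMOX1, ZNF469, CYP1B1, SPACA6 (0.58 ± 0.09), MIAT (0.52 ± 0.11, lost without treated replicate 2 or 100 µg/mL replicates 2 or 3 (edgeR adjusted p between 0.0722 and 0.106)) and IGDCC4 (0.52 ± 0.07), and the 6 largest falls were ID4, ATOH8, ID2, NR4A1, ID3 and SPARC (-0.55 ± 0.07). SPARC encodes a collagen-binding matrix protein.

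At the same 500 µg/mL, treated cells differed from cells given the ethanol extract in 11134 genes, 66.1% of those tested, 33.3% higher and 32.7% lower, so single calls say little and the genes above are given by size. HMOX1 was at 288, 284 and 270.5 CPM with water and 60.8, 61.5 and 55.9 CPM with ethanol extract (log2 2.24 ± 0.04, edgeR adjusted p = 2.53e-21), the ethanol extract libraries lying below vehicle as well. FBXL5, at 44.3 CPM with water and 14.9 CPM with ethanol extract, differed by 1.57 ± 0.07, and GCLM, at 210.2 and 123 CPM, by 0.78 ± 0.07 (edgeR adjusted p = 7.77e-16 and 1.03e-09). CYP1B1 and TIPARP were lower with water than with ethanol extract (log2 -0.64 ± 0.05 and -1.13 ± 0.05), as were TFRC (-0.61 ± 0.06) and MT2A (-1.66 ± 0.06). Levels of ID2, ID3 and ID4 did not pass between the extracts. ID2 was at 54.2, 55.7 and 57.1 CPM with water and 52.1, 58.1 and 57.1 CPM with ethanol extract, a difference of -0.01 (95% interval -0.12 to 0.10). ID3 differed by -0.08 (-0.17 to 0.00), ID4 by -0.08 (-0.28 to 0.12) and ID1 by 0.25 (0.14 to 0.36), of which ID1 alone passed (edgeR adjusted p = 0.000264). ATOH8 set the extracts apart, at 6.24, 4.8 and 6.57 CPM with water and 16.6, 14.3 and 16.6 CPM with ethanol extract (log2 -1.44 ± 0.10).

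Among selenoprotein genes, GPX1 differed between the extracts by 0.12 (95% interval -0.02 to 0.26) and SEPW1 by 0.01 (-0.09 to 0.12), neither of which passed, but DIO2 was higher with water than with ethanol extract by 1.13 ± 0.04. Of the cytosolic chaperones, HSP90AA1 was higher with water extract by 0.99 ± 0.04 and HSPA8 by 0.17 ± 0.04. HSPA1A and HSPA1B, near-identical copies whose reads may be split, differed by 2.66 ± 0.04 and 2.18 ± 0.06. By the rule, the largest rises with water over ethanol extract included SDS, DLGAP5, SLCO1B3, PIF1 and BAAT, with log2 changes of 4.37, 4.19, 3.58, 3.16 and 2.99. The largest falls included HK2 (-4.96), a hexokinase, CA9 (-4.74), a carbonic anhydrase of hypoxic cells, and CXCL8 (-3.63), a chemokine. MYOD1, a muscle regulator, was at 0.0433, 0 and 0 CPM with water and 22.4, 23 and 24.3 CPM with ethanol extract.

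**Figure D5:**
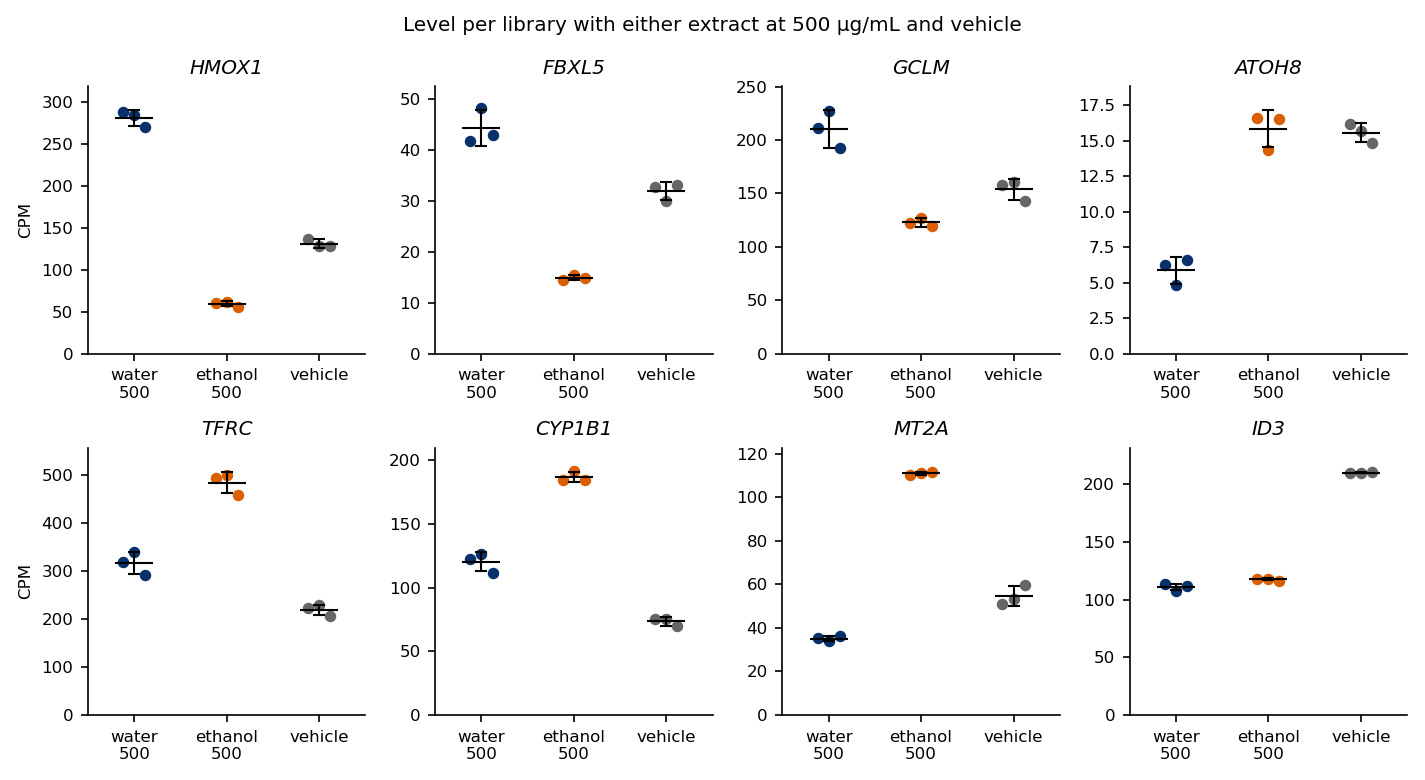
CPM of 8 genes in each library (points) with the group mean (horizontal line) and SD (error bar), for water extract at 500 µg/mL, ethanol extract at 500 µg/mL and vehicle, 3 libraries per group. HMOX1, FBXL5 and GCLM are highest and ATOH8 is lowest with water extract, TFRC, CYP1B1 and MT2A are highest with ethanol extract, and ID3 is low with both.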

How the data were processed

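Polyadenylated RNA of A549 cells was sequenced with a strand-keeping MGIEasy kit, per the labels' protocols. The authors deposited expected counts for 60675 genes in 96 libraries. FastQC, Trim Galore, STAR and RSEM 1.3.3 with GRCh38 (hg38) were used, per the submitters' processing notes. Neither the annotation release nor the strand setting is given in the sources used here, so overlapping, antisense and near-identical genes are uncertain. In the first batch 89.9% of values were whole. Expected counts were rounded here to whole numbers. The 21 libraries of that batch (7 groups of 3) were fitted together with edgeR 4.0.16 in R 4.3.3: TMM factors (0.911 to 1.04), filterByExpr, the quasi-likelihood F-test and p-values adjusted after Benjamini and Hochberg across 16854 genes, threshold 0.05, with no covariates and 14 residual degrees of freedom. Log2 changes carry their standard error. Intervals are 95%.

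Genes were named by rule: the 15 largest rises and 15 largest falls among genes past the threshold, at 10 CPM or more in 1 group, with no overlap between groups and no repeated, clone, pseudogene, antisense or readthrough symbol; the 6 largest rises and falls in CPM; up to 6 members with the smallest p of each of 37 lists; the members of the heme, iron, aryl hydrocarbon receptor, BMP and ID, metallothionein, small heat shock protein, splicing kinase and chromosomal passenger groups, of which the text gives part by range or count; and the 6 largest changes between extracts and between 500 and 100 µg/mL. Members named only because a count was small were picked after their values were seen. The comparison, the lists and the rule were chosen with earlier results of these data known. The contrast of 500 with 20 µg/mL and 2 lists (selenoproteins, selenocysteine machinery) were added after values were seen. Lists get counts and medians, no test. Some genes of the lists and of the rule are not reported here. Gene coordinates, types and transcript lengths come from GENCODE release 29, which matched 57055 identifiers and may not be the authors' release. The fit was tested on simulated data for treated against vehicle. Of 50 genes changed by each fold, 56% were recovered at 1.25-fold, 84% at 1.5-fold, 100% at 2-fold and 98% at 4-fold. Of 177 calls, 8 were false. Genes that did not pass may thus hold changes of the smaller sizes. The simulation changed only genes above a low count and left all others equal between treated and vehicle. It held no effect shared by libraries, so its false calls are not the error rate of the calls above. No pair of the 21 replicate pairs held identical values (0 pairs). Alternatives were other normalization, no filter, DESeq2 1.42.0, only the groups compared, a replicate block, no mitochondrial genes, and leaving out each library in turn.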

Additional observations from a re-analysis of the deposited data

How the results depend on the processing

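Between treated and vehicle cells, 3553 genes passed, 2405 to 3572 with each library left out in turn, and 3024 in DESeq2. At 100 µg/mL against vehicle 2116 passed, 1005 (without 100 µg/mL replicate 2) to 2399 with a library left out and 1400 with only the 6 libraries of that contrast fitted. At 20 µg/mL the 1602 became 703 (without 20 µg/mL replicate 1) to 1924, and 803. Between 500 and 20 µg/mL the 346 became 158 (without treated replicate 2) to 255, and between 500 and 100 µg/mL the 195 became 97 (without treated replicate 2) to 158, or 345 with no filter on low counts. In DESeq2 this last contrast gave 243 genes, 97 of them higher, against 99 of 195. Between the extracts, 10629 to 10821 genes passed with a library left out. The highest counts with a library left out against vehicle, 3572, 2399 and 1924, all came without vehicle replicate 2, and the causes were not tested. Same-numbered libraries deviated from their group means with correlations of at most 0.087. Yet replicate 3 had the highest mitochondrial share and the lowest TMM factor in each of the 7 groups of the batch. In treated libraries these shares were 14.7, 14.5 and 16.8%. Whether the replicate numbers mark shared handling was not tested, and the main fit held no replicate term. With a replicate block 4139 genes passed between treated and vehicle, 2851 at 100 and 2391 at 20 µg/mL against vehicle, 507 between 500 and 20 µg/mL and 309 between 500 and 100 µg/mL, and not every library correlated best with its own number.

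Of 173 genes followed in the text that passed against vehicle, 135 passed under every alternative that gave them an adjusted p, and none reversed. Mitochondrial genes had no value in the fit that left them out. Over the alternatives the log2 change from vehicle ranged from 1.07 to 1.14 for HMOX1, from -1.11 to -1.09 for ID2, from -0.92 to -0.79 for GPX1 and from -0.62 to -0.41 for MT-CO1. Low counts limit genes such as CYP1A1, for which DESeq2 gave no adjusted p against vehicle.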

Other observations

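ABCA1, which exports cholesterol to lipoproteins, was at 27.7, 32.1 and 26.4 CPM in treated and 21.8, 20.1 and 19.2 CPM in vehicle libraries (log2 0.50 ± 0.08, edgeR adjusted p = 9.02e-05), beside 0.19 at 20 and 0.33 at 100 µg/mL against the same vehicle libraries. Its partner ABCG1, a low transcript, changed by 0.72 ± 0.17 (edgeR adjusted p = 0.00352), and HMGCS1, an early enzyme of cholesterol synthesis, by 0.18 ± 0.04 (edgeR adjusted p = 0.00326). Of 30 cholesterol genes, 9 were higher and 1 lower than in vehicle, beside 9.7% and 11.4% of all genes, with a median of 0.12. The higher count was 4 or 5 without treated replicate 1 or 2 or without vehicle replicate 3. Against 20 µg/mL, where 0.997% of all genes were higher, 1 was higher, ABCA1 (0.31 ± 0.08), lost without treated replicates 1 or 2 or 20 µg/mL replicates 1, 2 or 3 (edgeR adjusted p between 0.0612 and 0.248).

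IGFBP3, which binds insulin-like growth factors, was at 114, 119.5 and 135 CPM in treated and 178, 158 and 180.2 CPM in vehicle libraries (log2 -0.49 ± 0.07, edgeR adjusted p = 3.18e-05), and -0.39 ± 0.07 over 20 µg/mL. BIRC3, an NF-kB target that restrains cell death, rose by 0.32 ± 0.06 over vehicle and 0.32 ± 0.06 over 20 µg/mL (edgeR adjusted p = 0.000561 and 0.0046), and the chemokine CXCL5 by 0.27 ± 0.06 over vehicle (edgeR adjusted p = 0.00202). Of 18 NF-kB and chemokine genes tested, 3 were higher and 2 lower than in vehicle, beside 9.7% and 11.4% of all genes, with a median of 0.11. CDKN1A, the cell cycle inhibitor p21, was at 84.4, 90.7 and 88.3 CPM in treated and 116, 105 and 122 CPM in vehicle libraries (log2 -0.38 ± 0.05, edgeR adjusted p = 2.94e-05), while of 27 p53 targets 5 were higher and 3 lower, beside 9.7% and 11.4% of all genes. B2M, the light chain of class I antigen-presenting molecules, was lower than vehicle at every dose, with log2 changes of -0.42 at 20, -0.47 at 100 and -0.36 at 500 µg/mL, each passing in edgeR.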
